A study of Homo sapiens with 16 samples.

Results

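The genes described here are 10 members of the Toll-like receptor (TLR) system of B cells: the receptors TLR1, TLR6, TLR7, TLR9 and TLR10, the receptor homologue CD180, the receptor escort protein UNC93B1, and the adaptors MYD88, TICAM1 and TICAM2. They were taken by gene symbol from a table of 58051 gene identifiers, and all 10 had a mean normalized count of at least 10, as did 13765 identifiers in all. RNA was sequenced from P493-6, a human B cell line immortalised by Epstein-Barr virus, in which doxycycline switches off a MYC transgene and estradiol switches on the viral regulator EBNA2. All 16 libraries came from this 1 cell line and fall into 4 groups of 4. Cells at high MYC were in DMEM with serum and no additive, and cells at medium MYC had 0.1 µg/mL doxycycline and 1 µM β-estradiol from 24 h before treatment. Treatment lasted 24 h at each level, with 100 nM of IMP1088, which blocks N-myristoyltransferases (NMT), or with its solvent DMSO as the control. Because MYC level was set by the additives, MYC, doxycycline and estradiol cannot be told apart in the comparisons of medium with high MYC. The same holds for differences between high and medium MYC in the response to the inhibitor.

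Toll-like receptors recognise microbial molecules. TLR1 and TLR6 work at the cell surface as partners of TLR2 in sensing lipoproteins, TLR10 is a close relative of both that is found mainly on B cells, and TLR7 and TLR9 sense RNA and DNA inside endosomes. MYD88 carries the signal of nearly all of these receptors towards NF-kappaB, whereas TICAM1 (TRIF) serves TLR3 and TLR4 and reaches TLR4 through the bridging adaptor TICAM2 (TRAM). TICAM2 is itself a substrate of NMT: the fatty acid myristate is attached to the glycine that follows its start methionine and holds the protein at membranes, a step on the protein that RNA counts do not measure.

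The coding starts of the adaptors show where that glycine lies. Each is given as the first 30 coding bases, 5′ to 3′ on the coding strand, with the second codon in capitals, taken from GENCODE release 29 transcripts on GRCh38. TICAM2 begins on the minus strand of chromosome 5 (chr5:115581227-115581256), TICAM1 on the minus strand of chromosome 19 (chr19:4818348-4818377) and MYD88 on the plus strand of chromosome 3 (chr3:38138701-38138730).
TICAM2: atgGGTatcgggaagtctaaaataaattcc
TICAM1: atgGCCtgcacaggcccatcacttcctagc
MYD88: atgGCTgcaggaggtcccggcgcggggtct
TICAM2 has the glycine codon GGT there, whereas TICAM1 and MYD88 have the alanine codons GCC and GCT. TLR9 is the only other member of the 10 with a glycine at this place, in a receptor that enters the secretory pathway. Of 19552 annotated coding genes, 1520 (7.77%) have a glycine as the second residue, so the codon alone does not mark a substrate.

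Between 8755296 and 13858534 reads were counted per library, and no library of a group matched another within sampling noise. Normalized counts of MYC itself were 31649 ± 2130 in controls at high MYC and 959 ± 48.7 in controls at medium MYC (mean ± SD, n = 4), so MYC RNA followed the labels. In treated cells they were 47542 ± 505 and 1382 ± 51.2. All 8 B cell markers examined, among them MS4A1, CD79A and PAX5, had at least 10 normalized counts in every library. Their sum was 40484 to 42897 in high MYC controls, 34033 to 35237 with the inhibitor, 61840 to 65781 in medium MYC controls and 55725 to 57395 with the inhibitor. Of 4 plasma cell markers all were at 10 or more everywhere, with a sum of 3174 to 3295, 3433 to 3570, 879 to 974 and 1581 to 1666 in the same order of groups. Of 5 T cell markers CD3D and CD2 stayed near 0 (5.14 at most), and the sum was 90.5 to 108, 57.2 to 78.8, 185 to 243 and 156 to 190. The other markers were present: CD3E at 28.0 to 75.3, CD3G at 9.32 to 36.9 and TRAC at 7.28 to 158. The mean of TRAC was 27.8, 14.5, 132 and 120 in the same order of groups. For 5 markers of plasmacytoid dendritic cells, which also express TLR7 and TLR9, the sum was 1483 to 1553, 1351 to 1461, 1782 to 1865 and 1730 to 1885, nearly all of it TCF4. Of 7 monocyte markers only LYZ reached 10 in every library, FCGR1A, CD163, S100A8, S100A9 and MPO were at 0 in most libraries, and the sum was 40.7 to 61.5, 44.1 to 54.1, 50.1 to 59.5 and 75.7 to 79.7. The remaining marker, CSF1R, had means of 0.279, 0.537, 5.81 and 8.52. The part of these markers in the results was not tested. Levels are those of bulk RNA, in which fewer cells expressing a gene and less RNA per cell cannot be told apart.

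Per kilobase of annotated exon, TLR10 had the highest level of the 10 genes in all 4 groups and TICAM2 the lowest. In high MYC controls TLR10 stood at 391 ± 9.50 normalized counts per kb (SD, n = 4). It was followed by UNC93B1 at 209 ± 15.8, CD180 at 187 ± 3.16, MYD88 at 164 ± 5.66, TLR9 at 142 ± 13, TLR7 at 129 ± 3.48 and TICAM1 at 105 ± 13. TLR6 at 68.8 ± 5.65 and TLR1 at 47.7 ± 1.97 were lower, and TICAM2 was at 4.83 ± 4.31. Among neighbours in this order, only TLR9 and TLR7 had ranges of mean ± SD that overlapped. In medium MYC controls TLR10 was at 842 ± 23.1, MYD88 came next at 371 ± 11.1, and TLR6 had moved up to 184 ± 3.33. CD180 (166 ± 3.20), UNC93B1 (157 ± 20.5), TLR1 (150 ± 8.28), TICAM1 (139 ± 13.5) and TLR7 (127 ± 4.26) then formed a series in which the ranges of mean ± SD of neighbours overlapped, above TLR9 at 84.8 ± 9.16 and TICAM2 at 34.5 ± 11.4. The place of TLR9 in both orders is that of its deposited reads, most of whose sequence is shared with an overlapping locus: the pair together had 938 ± 63.7 normalized counts in high MYC controls and 609 ± 55.6 in medium MYC controls, against 551 ± 50.2 and 328 ± 35.4 for TLR9 alone.

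**Figure D1:**
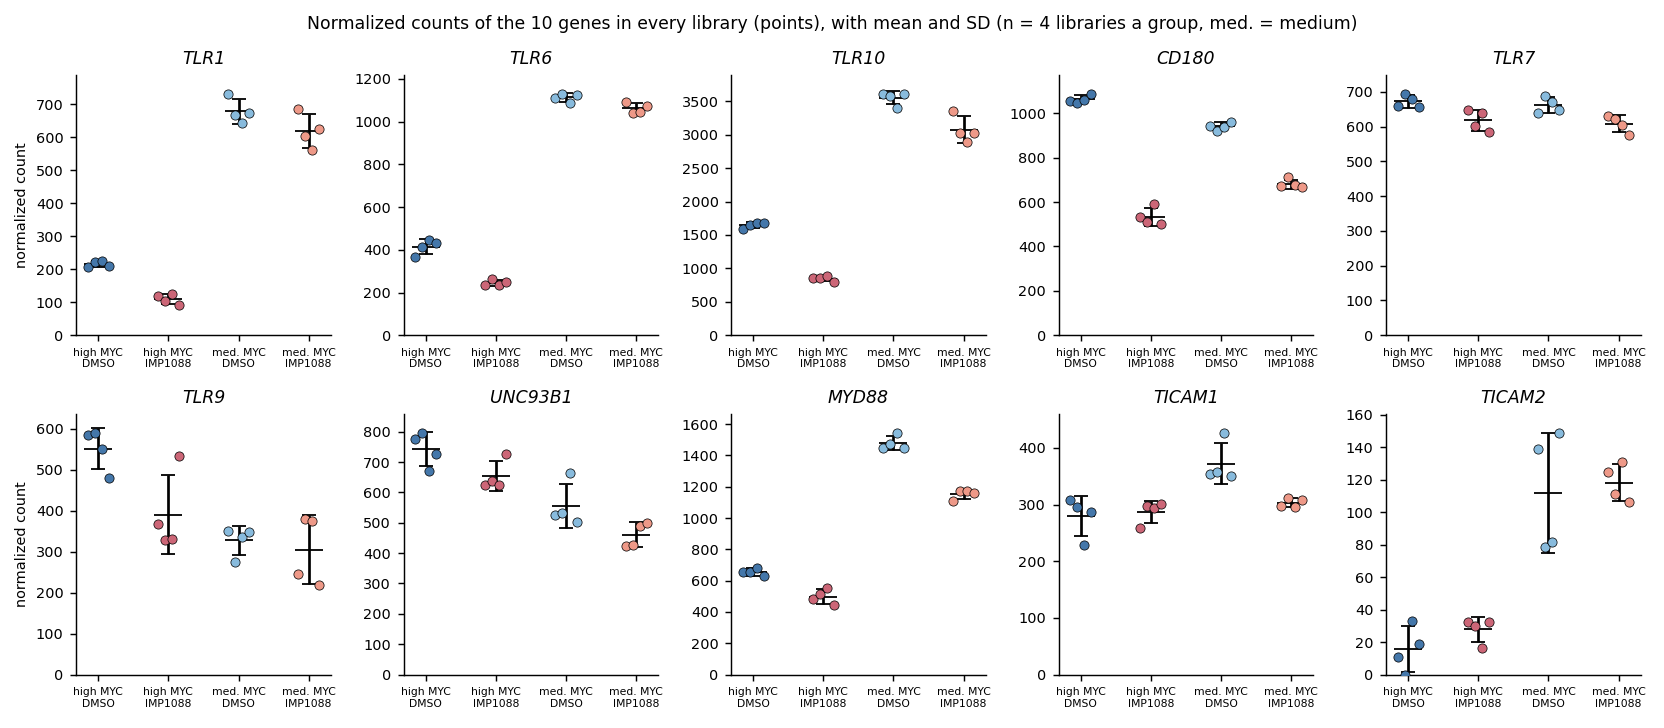
Normalized counts (y axis, starting at 0, own scale per gene) of the 10 genes in the 16 libraries, in 4 groups along the x axis; points are libraries and bars show mean and SD. TLR1, TLR6 and TLR10 sit lowest in high MYC cells with IMP1088 and highest in medium MYC cells, whereas TLR7 spans only 577 to 694 over all libraries.

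The inhibitor was first compared with DMSO at high MYC. Fold changes are log2 differences of the normalized count plus 1, given with their standard error (SE), and a gene is called at an adjusted p under 0.05 in limma, adjusted over all 13765 genes. Of the 10 members, 7 were called lower (TLR1, TLR6, TLR7, TLR9, TLR10, MYD88 and CD180) and none was called higher, against 26.8% of all genes called in either direction and 16.3% called lower. For 6 members the 4 treated libraries did not overlap the 4 controls, against 26.7% of all genes. The median log2 change of the 10 was -0.46, beside -0.02 over all genes tested. Among all genes the calls split into 1442 higher and 2247 lower, and quantile normalization split them into 1727 and 1770. At medium MYC the inhibitor left 6 members lower (TLR7, TLR10, MYD88, TICAM1, UNC93B1 and CD180) and none higher, against 26.3% of all genes called in either direction and 14.6% called lower. Again 6 members did not overlap, against 27.9% of all genes, and the median change was -0.18, beside -0.01 over all genes. Here the calls over all genes were 1606 higher and 2012 lower, and with equal library totals 1962 and 1658. TLR7 was at the edge of the threshold in both comparisons.

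The responses at the 2 MYC levels were then compared directly, as the log2 change at high MYC minus that at medium MYC. TLR1, TLR6, TLR10 and CD180 fell more at high MYC, 4 of 10 members, against 8.63% of all genes called in either direction and 5.33% called negative. The other 6 members were not called in this test. Since the additives differ between the MYC levels, such a difference cannot be assigned to MYC, doxycycline or estradiol. The comparisons at high and medium MYC have no library in common, but each gives its part to this difference.

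Medium MYC was compared with high MYC in the same way. Among controls 9 of the 10 members were called, 6 of them higher (TLR1, TLR6, TLR10, MYD88, TICAM1 and TICAM2) and 3 lower (TLR9, UNC93B1 and CD180). The background is high in this comparison: 76.2% of all genes were called in either direction, 38.9% were called higher, and groups did not overlap for 69.2% of all genes and for 9 members. With the inhibitor present 8 members were called, 6 of them higher (TLR1, TLR6, TLR10, MYD88, TICAM2 and CD180) and TLR9 and UNC93B1 lower, against 77.5% of all genes called in either direction and 39.7% called higher. There 7 members did not overlap, against 72.6% of all genes. The median change of the 10 was 0.76 among controls and 0.79 with the inhibitor, beside 0.02 over all genes in each. The share of members called is thus near that of all genes, and the sizes of the single genes follow.

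**Figure D2:**
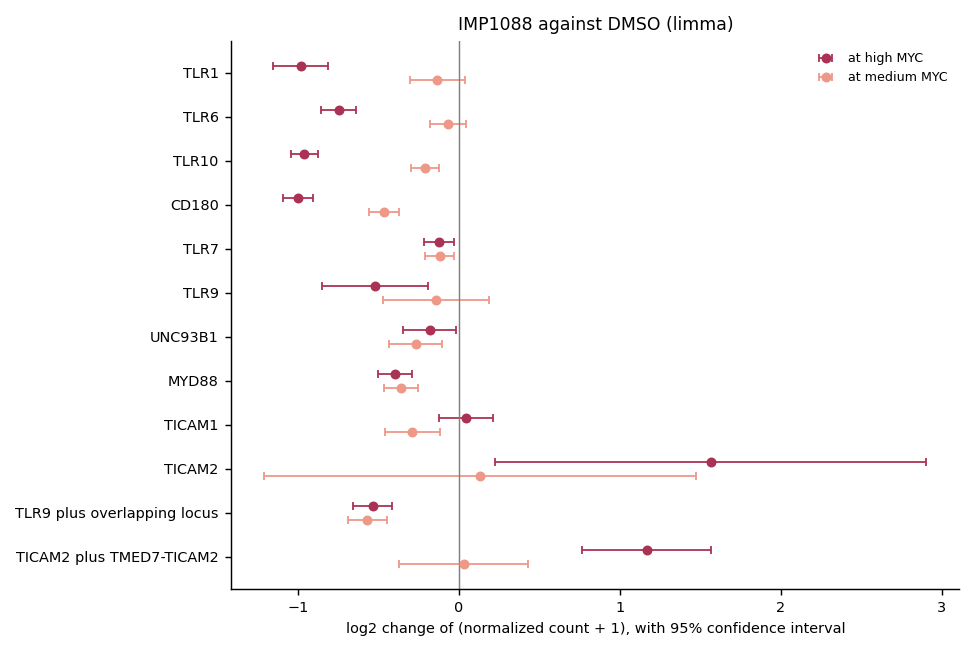
Log2 change of the normalized count plus 1 (x axis) with IMP1088 against DMSO for each member and for 2 pairs of overlapping loci added together (y axis); points are limma estimates from 4 against 4 libraries and bars are 95% confidence intervals. TLR1, TLR6, TLR10 and CD180 lie further left at high MYC (dark) than at medium MYC (light), and MYD88 and TLR7 lie at about the same place at both.

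The surface receptors TLR1, TLR6 and TLR10 lie side by side on chromosome 4, all on the minus strand, at chr4:38790677-38856817, chr4:38823715-38856817 and chr4:38772239-38782990. All 3 had the same order of groups: lowest at high MYC with the inhibitor, higher in high MYC controls, and highest at medium MYC. TLR1 had normalized counts of 206, 222, 225 and 211 in the 4 high MYC controls and 118, 104, 126 and 90.4 with the inhibitor. In medium MYC cells it had 731, 667, 642 and 675 in controls and 684, 605, 562 and 625 with the inhibitor. The treated and control libraries were fully separate at high MYC and overlapped at medium MYC. TLR1 fell 1.98-fold at high MYC (log2 -0.98, SE 0.08, adjusted p = 1.10e-08). At medium MYC the change was -0.13 (SE 0.08, adjusted p = 0.253) with a 95% interval from -0.31 to 0.04. The difference between these responses was -0.85 (SE 0.12, adjusted p = 3.88e-05). Medium MYC cells had 3.13-fold more TLR1 RNA than high MYC cells among controls (log2 1.64, SE 0.08, adjusted p = 5.76e-14) and 5.63-fold more with the inhibitor (log2 2.49).

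TLR6, which like TLR1 pairs with TLR2, gave 368, 412, 446 and 434 in high MYC controls and 233, 264, 237 and 252 with the inhibitor. At medium MYC it gave 1112, 1130.1, 1085 and 1125 in controls and 1090.5, 1040.1, 1044 and 1075 with the inhibitor. The high MYC groups were separate by more than 100 counts, and the highest treated library at medium MYC lay above the lowest control. The fall at high MYC was 1.68-fold (log2 -0.75, SE 0.05, adjusted p = 9.79e-10). At medium MYC the change of -0.07 (SE 0.05) was not called (adjusted p = 0.393), with an interval from -0.18 to 0.04. The difference in response was -0.68 (SE 0.07, adjusted p = 2.44e-06). TLR6 was 2.68-fold higher at medium than at high MYC among controls (log2 1.42, adjusted p = 2.98e-16) and 4.30-fold higher with the inhibitor (log2 2.10).

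TLR10, the receptor of this cluster with the most RNA, gave 1596, 1643, 1682 and 1679 in high MYC controls and 853, 862, 881 and 795 with the inhibitor. At medium MYC it gave 3604, 3579, 3405 and 3612 in controls and 3362, 3028, 2886 and 3019 with the inhibitor. Every treated library was below every control at both levels. TLR10 fell 1.95-fold at high MYC (log2 -0.96, SE 0.04, adjusted p = 4.86e-13) and 1.156-fold at medium MYC (log2 -0.21, SE 0.04, adjusted p = 0.000544). The responses differed by -0.75 (SE 0.06, adjusted p = 1.59e-08). Its level at medium MYC was 2.15-fold that at high MYC among controls (log2 1.10, adjusted p = 3.20e-16) and 3.62-fold with the inhibitor (log2 1.86).

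TLR1 and TLR6 could exchange reads only in part. They share 57 annotated exon bases, and 249 of the 4673 stretches of 50 bases in TLR1 transcripts (5.33%) also occur in TLR6. No such stretch of TLR1 occurs in TLR10 or any other annotated gene. GENCODE places a coding transcript start of both TLR1 and TLR6 at the same base, chr4:38856817, on the minus strand. Only 1 TLR1 coding transcript starts there, and the others start between chr4:38804376 and chr4:38805578. The 250 bases before the shared start are listed in RefSeq promoters for TLR6, and TLR1 had no entry of its own (chr4:38856818-38857067, minus strand, 5′ to 3′, GRCh38.p14). They are shown beside those of CD180 (chr5:67196800-67197049, minus strand), which also fell more at high MYC.
TLR6: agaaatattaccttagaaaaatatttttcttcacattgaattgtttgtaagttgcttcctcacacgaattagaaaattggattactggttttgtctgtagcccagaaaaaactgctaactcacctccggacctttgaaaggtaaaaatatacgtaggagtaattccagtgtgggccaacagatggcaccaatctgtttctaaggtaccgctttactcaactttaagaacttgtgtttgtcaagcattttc
CD180: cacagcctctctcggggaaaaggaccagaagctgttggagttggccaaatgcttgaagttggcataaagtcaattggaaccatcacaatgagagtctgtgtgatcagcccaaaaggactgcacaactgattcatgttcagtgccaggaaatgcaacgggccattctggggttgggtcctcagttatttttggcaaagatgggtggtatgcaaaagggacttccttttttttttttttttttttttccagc
Neither stretch holds, on either strand, the MYC E-box CACGTG, the RBPJ motif GTGGGAA, the octamer ATGCAAAT, the IRF pair GAAANNGAA or the kappaB motif GGGACTTTC. RBPJ is the factor through which EBNA2 reaches DNA. Over 35116 RefSeq promoters of this length the E-box was found in 6.34%, the RBPJ motif in 5.43%, the octamer in 1.63%, the IRF pair in 6.88% and the kappaB motif in 0.325%. Of the 6 members with a promoter in that table, the octamer was found 101 to 94 bases upstream of the RefSeq start of TLR9. The IRF pair was found as GAAAGCGAA 61 to 53 bases upstream of the RefSeq start of MYD88. Both matches lie inside the gene as GENCODE annotates it, downstream of its outermost start (chr3:52226163 for TLR9 and chr3:38138478 for MYD88). The kappaB motif was found before TICAM1, and these matches are descriptions of the letters only.

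CD180 (RP105), a TLR4-like surface protein of B cells that works with LY86 (MD-1), lies at chr5:67179613-67196799 on the minus strand. It gave 1055, 1046, 1062 and 1087 in high MYC controls and 531, 508, 591 and 500.0 with the inhibitor. At medium MYC it gave 944, 919, 937 and 963 in controls and 671, 711, 676 and 667 with the inhibitor. Both pairs of groups were wide apart relative to their SD of 17.9 to 41.1. CD180 fell 2.0-fold at high MYC (log2 -0.998, SE 0.04, adjusted p = 9.55e-13) and 1.38-fold at medium MYC (log2 -0.47, SE 0.04, adjusted p = 6.93e-08), a difference of -0.53 (SE 0.06, adjusted p = 6.38e-06). The MYC comparison therefore had opposite signs: among controls CD180 was lower at medium MYC (log2 -0.18, SE 0.04, adjusted p = 0.00133), and with the inhibitor it was higher there (log2 0.36, SE 0.04, adjusted p = 2.60e-07). Its partner LY86 fell at high MYC (log2 -0.68, SE 0.13, adjusted p = 0.000414), from 76.1 ± 14.2 to 46.8 ± 3.94 (SD, n = 4), and had 140.3 ± 9.23 and 122 ± 17.7 at medium MYC.

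Of the endosomal receptors, TLR7 (chrX:12867083-12890380, plus strand) was the steadiest member. Its 16 values lay between 577 and 694, and the group means were 672 ± 18.2 and 617 ± 30.3 at high MYC and 661 ± 22.2 and 608 ± 24.1 at medium MYC, controls first. In each pair all treated libraries lay below all controls. The changes of -0.12 at high MYC (SE 0.04, adjusted p = 0.0428) and -0.12 at medium MYC (SE 0.04, adjusted p = 0.0488) passed the threshold narrowly. Of 20 alternatives, 13 took the call away at high MYC and 14 at medium MYC, with an adjusted p of up to 0.142 (without high MYC inhibitor library 4) and 0.156 (without medium MYC inhibitor library 4). Medium and high MYC controls differed by -0.02, with an interval from -0.12 to 0.07 (adjusted p = 0.637).

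TLR9 (chr3:52221080-52226163, minus strand) cannot be read alone. GENCODE has a further coding gene, ENSG00000173366, over TLR9 and its neighbour TWF2 on the same strand, which holds 86.3% of the exon bases of TLR9. Of the stretches of 50 bases in TLR9 transcripts, 84.9% occur in it too. The share of the reads of this pair that was given to TLR9 ran from 47.1% to 96.7% between libraries. TLR9 as deposited had 584, 589.6, 551 and 481 in high MYC controls and 369, 328, 332 and 534 with the inhibitor. It had 352, 276, 337 and 348 in medium MYC controls and 245, 379, 374 and 219.8 with the inhibitor. The treated groups were far more scattered than the controls. On these values TLR9 fell at high MYC (log2 -0.52, SE 0.16, adjusted p = 0.0175), but 1 treated library lay among the controls. The call was lost without high MYC inhibitor library 2 (-0.45, adjusted p = 0.0645) or 3 (-0.45, adjusted p = 0.0620). At medium MYC the change was -0.14 (SE 0.16, adjusted p = 0.557). Medium MYC cells had less TLR9 than high MYC cells among controls (-0.75, SE 0.16, adjusted p = 0.000206), and with the inhibitor the difference of -0.37 (SE 0.16, adjusted p = 0.0376) was lost, for example, without high MYC inhibitor library 4 (-0.21, adjusted p = 0.198) and without medium MYC inhibitor library 4 (-0.23, adjusted p = 0.182).

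With the reads of both loci added, a step chosen after the data were seen, the scatter was smaller. The sums were 999, 970.3, 852 and 931 in high MYC controls and 641, 619, 634 and 689 with the inhibitor. At medium MYC the sums were 587, 586, 692 and 573 in controls and 412, 392, 415 and 416 with the inhibitor. Treated libraries lay below controls at both levels without overlap. The fall was 1.45-fold at high MYC (log2 -0.54, SE 0.06, adjusted p = 4.56e-07) and 1.49-fold at medium MYC (log2 -0.57, SE 0.06, adjusted p = 1.60e-07), and the difference between them was 0.03 (SE 0.08, adjusted p = 0.873) with an interval from -0.14 to 0.21. The sum was also lower at medium than at high MYC, by -0.62 among controls (adjusted p = 2.64e-09) and -0.66 with the inhibitor (adjusted p = 1.06e-09). Taken alone, ENSG00000173366 had 387 ± 63.6 and 255 ± 67.8 normalized counts at high MYC and 281 ± 62.1 and 105 ± 91.2 at medium MYC (SD, n = 4, controls first). In limma it was not called with the inhibitor at high MYC (log2 -0.63, SE 0.52, adjusted p = 0.411). At medium MYC it was called lower (log2 -2.06, SE 0.52, adjusted p = 0.00463), where TLR9 alone was not called. Reads of TWF2, an actin-binding protein gene, can enter the sum, since it shares 463 exon bases with the added locus. TWF2 itself had 521 ± 32.9 and 439 ± 30.7 normalized counts at high MYC and 475 ± 43.0 and 418 ± 15.6 at medium MYC (SD, n = 4, controls first). It was called lower with the inhibitor at high MYC (log2 -0.25, SE 0.06, adjusted p = 0.00593) and at medium MYC (log2 -0.18, SE 0.06, adjusted p = 0.0418). The part of TWF2 in the sum was not tested.

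**Figure D3:**
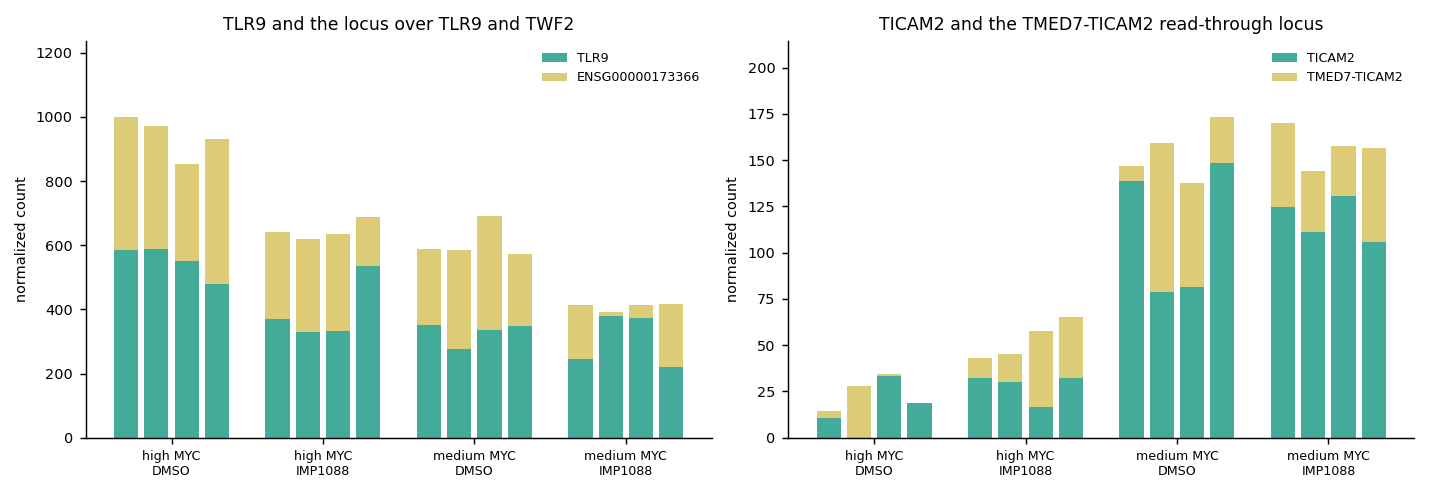
Normalized counts (y axis, starting at 0) of TLR9 and of the locus over TLR9 and TWF2 (left), and of TICAM2 and the TMED7-TICAM2 read-through locus (right), stacked for each of the 16 libraries along the x axis. The border between the colours moves from library to library within a group, while the height of the stack is steadier.

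UNC93B1 (chr11:67991104-68004982, minus strand) carries TLR7 and TLR9 from the endoplasmic reticulum to endosomes. It gave 775, 795, 669 and 728 in high MYC controls and 626, 638, 626 and 726 with the inhibitor. Values at medium MYC were 526, 531, 663 and 504 in controls and 422, 428, 491 and 500.1 with the inhibitor. The groups overlapped at high MYC and were just separate at medium MYC. The change at high MYC was -0.18 (SE 0.08, adjusted p = 0.0986), called only without high MYC control 3 (-0.23, adjusted p = 0.0462) or high MYC inhibitor library 4 (-0.23, adjusted p = 0.0468). At medium MYC UNC93B1 fell by 0.27 on the log2 scale (SE 0.08, adjusted p = 0.0151). That call was lost without medium MYC control 3 (-0.18, adjusted p = 0.0649), without medium MYC inhibitor library 1 (-0.23, adjusted p = 0.0586) and without library 2 of that group (-0.23, adjusted p = 0.0536). UNC93B1 was lower at medium than at high MYC, by -0.42 among controls (adjusted p = 6.19e-05) and -0.51 with the inhibitor (adjusted p = 5.91e-06). Of its stretches of 50 bases 11.8% also occur in other annotated genes, most often in UNC93B7, so its reads could be divided too.

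MYD88, the shared adaptor, lies at chr3:38138478-38143022 on the plus strand. It gave 654, 658, 682 and 627 in high MYC controls and 481, 512, 553 and 447 with the inhibitor. The medium MYC values were 1451, 1475, 1543 and 1447 in controls and 1107, 1176, 1173 and 1158 with the inhibitor. Groups were separate in every comparison. MYD88 fell 1.32-fold at high MYC (log2 -0.40, SE 0.05, adjusted p = 3.70e-06) and 1.28-fold at medium MYC (log2 -0.36, SE 0.05, adjusted p = 1.28e-05). The difference in response was -0.04 (SE 0.07, adjusted p = 0.819), with an interval from -0.19 to 0.11. At medium MYC it was 2.26-fold higher among controls (log2 1.17, SE 0.05, adjusted p = 3.94e-15) and 2.32-fold higher with the inhibitor (log2 1.21). None of its stretches of 50 bases occurs in another annotated gene.

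TICAM1 (chr19:4815932-4831704, minus strand) gave 307, 296, 229.6 and 287 in high MYC controls and 259, 297, 293 and 300.4 with the inhibitor. In medium MYC cells it gave 354, 358, 426 and 350.4 in controls and 298, 312, 296 and 308 with the inhibitor. The high MYC groups overlapped, and at medium MYC all treated libraries were below all controls. The change at high MYC was 0.04 (SE 0.08, adjusted p = 0.745), and TICAM1 fell at medium MYC by 0.29 on the log2 scale (SE 0.08, adjusted p = 0.0109). The difference between these responses was 0.33 (SE 0.12) and missed the threshold (adjusted p = 0.0815), which it passed without high MYC control 1 (0.38, adjusted p = 0.0454) or high MYC inhibitor library 1 (0.38, adjusted p = 0.04998). Medium MYC controls were 1.33-fold above high MYC controls (log2 0.41, adjusted p = 0.000107), whereas with the inhibitor the difference was 0.08 (SE 0.08, adjusted p = 0.385). The 250 bases before TICAM1 (chr19:4831713-4831962, minus strand, 5′ to 3′, RefSeq, GRCh38.p14) are shown for their kappaB motif, in capitals, 120 to 112 bases upstream of the start.
TICAM1: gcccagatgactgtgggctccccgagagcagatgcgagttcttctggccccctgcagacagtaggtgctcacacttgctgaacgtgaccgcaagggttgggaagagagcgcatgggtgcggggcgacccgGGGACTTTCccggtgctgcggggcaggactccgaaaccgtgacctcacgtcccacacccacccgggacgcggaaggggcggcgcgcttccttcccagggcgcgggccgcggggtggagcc

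TICAM2 (chr5:115578650-115602479, minus strand), the myristoylated member, had the fewest reads of the 10. It gave 10.5, 0, 33.1 and 19.0 normalized counts in high MYC controls and 32.3, 29.9, 16.6 and 32.2 with the inhibitor. The library at 0, high MYC control 2, allows up to 3 reads, for counting error only. It had 25 reads in the overlapping read-through locus TMED7-TICAM2, and the division of reads between these loci was not tested. In medium MYC cells TICAM2 gave 139, 78.8, 81.4 and 149 in controls and 125, 111, 131 and 106 with the inhibitor, all above every high MYC library. Its level at medium MYC was higher among controls (log2 3.52, SE 0.64, adjusted p = 4.24e-05) and with the inhibitor (log2 2.09, SE 0.64, adjusted p = 0.00573). With 1 library left out the difference among controls ran from 2.44, without the control at 0 (adjusted p = 3.12e-07), to 4.14, without high MYC control 3 (adjusted p = 3.52e-06). The change with the inhibitor was not called at high MYC (log2 1.56, SE 0.64, adjusted p = 0.0788) or at medium MYC (0.13, SE 0.64, adjusted p = 0.912). The value at high MYC turned on single control libraries: it was 0.49 (adjusted p = 0.274) without the control at 0, and it was called without high MYC control 3 (2.18, adjusted p = 0.0112) and without high MYC control 4 (1.93, adjusted p = 0.0434). It was 0.72 at a pseudocount of 10, 2.40 at a pseudocount of 0.1 and 0.84 in edgeR on recovered reads, with no call in these (adjusted p = 0.0735, 0.116 and 0.189). Each SE given for TICAM2 comes from 1 spread shared by all 4 groups, the control at 0 included. In limma on the compared groups only, the adjusted p for the inhibitor was 0.244 at high MYC and 0.636 at medium MYC. For medium against high MYC it was 0.00130 among controls and 2.90e-08 with the inhibitor.

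TICAM2 also shares most of its sequence with a further annotated gene, the read-through locus TMED7-TICAM2, which holds 82.2% of its exon bases on the same strand. Between 0% and 100.0% of the reads of this pair were given to TICAM2, depending on the library. The sums were 14.3, 28.1, 34.2 and 19.0 in high MYC controls and 43.0, 45.5, 57.6 and 65.5 with the inhibitor. At medium MYC the sums were 147, 159, 137 and 173 in controls and 170.1, 144, 158 and 156 with the inhibitor. The sums were separate at high MYC and overlapped at medium MYC. The sum rose at high MYC (2.25-fold, log2 1.17, SE 0.19, adjusted p = 8.96e-05), differed by 0.03 from controls at medium MYC (SE 0.19, adjusted p = 0.937), and the difference between these responses was 1.14 (SE 0.27, adjusted p = 0.00908). Medium MYC controls were 6.54-fold above high MYC controls (log2 2.71, adjusted p = 2.41e-11). Taken alone, TMED7-TICAM2 was called higher with the inhibitor at high MYC (log2 2.48, SE 0.74, adjusted p = 0.0165), with overlapping groups. Its mean went from 8.24 ± 13.3 to 25.1 ± 14.3 (SD, n = 4), and that of TICAM2, which was not called, from 15.7 ± 14.0 to 27.8 ± 7.53. At medium MYC TMED7-TICAM2 was not called (log2 0.26, SE 0.74, adjusted p = 0.842). TMED7, a cargo receptor gene that shares exons with the read-through locus, also rose with the inhibitor at high MYC (log2 0.33, SE 0.10, adjusted p = 0.0208) and at medium MYC (log2 0.56, SE 0.10, adjusted p = 0.000226). Its part in the sum was not tested.

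**Figure D4:**
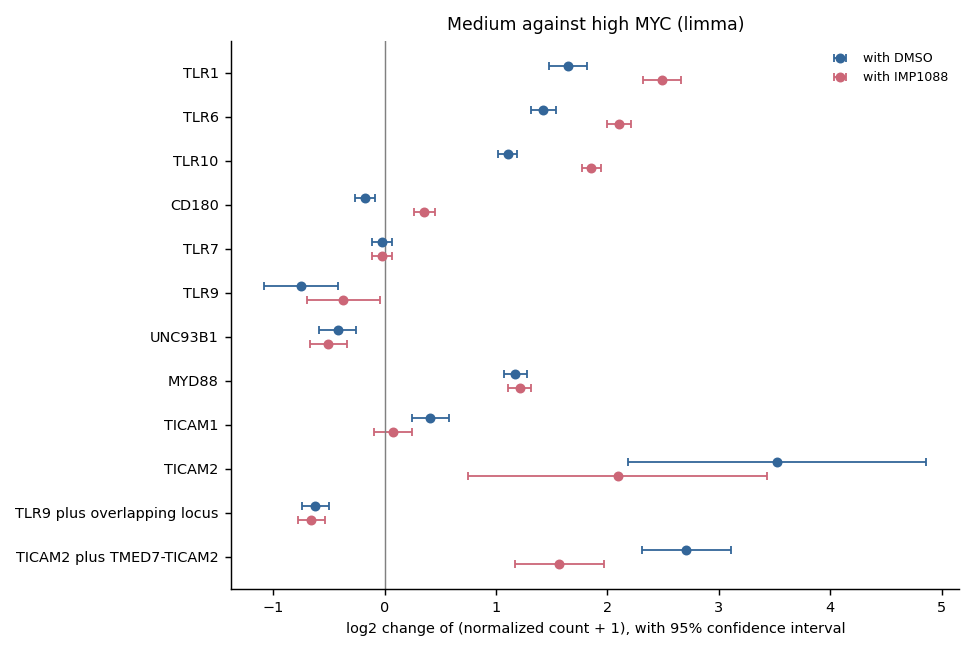
Log2 change of the normalized count plus 1 (x axis) in medium against high MYC cells for each member and for the summed loci (y axis), with DMSO (blue) and with IMP1088 (red); points are limma estimates from 4 against 4 libraries and bars are 95% confidence intervals. TLR1, TLR6, TLR10, MYD88 and TICAM2 lie right of 0 in both, TLR9 and UNC93B1 left of 0, and CD180 on opposite sides.

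The rest of the pathway was examined in a list of 64 other genes, of which 54 were tested. With the inhibitor 7 of the 54 were called higher and 13 lower at high MYC (median log2 -0.07), against 10.5% and 16.3% of all genes. At medium MYC 10 were higher and 13 lower (median -0.02), against 11.7% and 14.6% of all genes. Between MYC levels 32 were called higher and 12 lower at medium MYC among controls, with a median of 0.34, against 38.9% and 37.3% of all genes. With the inhibitor the counts were 35 and 11, with a median of 0.36, against 39.7% and 37.8% of all genes. The difference in response was called positive for 3 and negative for 8, against 3.31% and 5.33% of all genes.

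Other receptors were few. TLR4, the endotoxin receptor, fell with the inhibitor at both levels (log2 -0.37, SE 0.06, adjusted p = 6.16e-05 at high MYC and -0.23, SE 0.06, adjusted p = 0.00499 at medium MYC). Medium MYC controls had less of it, 351 ± 7.71 against 555 ± 23.6 normalized counts (SD, n = 4). TLR2, the partner of TLR1 and TLR6, had group means of at most 0.546, and TLR3 and TLR8 at most 3.23 and 1.56. TLR5, the flagellin receptor, was at 24.0 ± 5.27 in medium MYC controls and 0.188 ± 0.377 in high MYC controls. IL18R1, a receptor that signals through MYD88, was at 57.3 ± 5.17 in medium MYC controls and at 0 in all high MYC controls.

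Among accessory proteins 4 of 6 tested genes fell with the inhibitor at high MYC, and none was called higher, where 16.3% of all genes were called lower and 10.5% higher. They were LY86, LY96 (MD-2, the partner of TLR4, log2 -0.51, SE 0.19, adjusted p = 0.0456), NRROS, a binder of TLRs in the endoplasmic reticulum (-0.24, SE 0.06, adjusted p = 0.00685), and CNPY3, which helps TLRs fold (-0.16, adjusted p = 0.0262). HSP90B1 (gp96), a chaperone of TLRs, rose at medium MYC (log2 0.51, SE 0.03, adjusted p = 3.28e-11), and its responses at high and medium MYC differed by -0.48 (SE 0.04, adjusted p = 1.13e-07). Among the other adaptor-type proteins PIK3AP1 (BCAP), which links B cell and Toll-like receptors to PI3 kinase, fell at both MYC levels. Its fall was -0.48 on the log2 scale at high MYC (adjusted p = 5.21e-12) and -0.28 at medium MYC (adjusted p = 1.18e-08), a difference of -0.20 (SE 0.03, adjusted p = 0.000470), and among controls it was higher at medium MYC by a log2 of 1.29. TIRAP, which brings MYD88 to TLR4, was higher at medium MYC among controls by a log2 of 0.94 (adjusted p = 5.21e-06), and SARM1, a further TIR domain protein, was lower (-1.23, adjusted p = 1.54e-13).

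Of the kinases and ubiquitin machinery below the adaptors, 18 genes were tested. With the inhibitor at high MYC 1 was called higher (PELI1, 0.19, adjusted p = 0.00515) and 1 lower (UBE2V1, -0.12, adjusted p = 0.0101), where 26.8% of all genes were called in either direction. At medium MYC 2 were higher and 7 lower, led by IKBKE (-0.55, SE 0.06, adjusted p = 9.48e-07), where 11.7% of all genes were called higher and 14.6% lower. Between MYC levels IRAK2 stood out with 131 ± 21.2 normalized counts in medium and 5.43 ± 2.66 in high MYC controls (SD, n = 4), whereas IRAK1 was lower at medium MYC (log2 -0.93, adjusted p = 6.44e-16). Of 9 endosomal genes tested, 2 were called higher and 4 lower with the inhibitor at high MYC, against 10.5% and 16.3% of all genes. At medium MYC 4 were higher and 0 lower, against 11.7% and 14.6% of all genes. The protease genes CTSS and LGMN rose at high MYC (0.15, adjusted p = 0.00328, and 0.12, adjusted p = 0.0300) and at medium MYC (0.29, adjusted p = 2.92e-06, and 0.28, adjusted p = 1.04e-05). The protease gene CTSB and TASL fell at high MYC (-0.43, adjusted p = 1.88e-06, and -0.35, adjusted p = 7.67e-05). TASL, an adaptor that links TLR7 and TLR9 to IRF5, rose at medium MYC (0.19, adjusted p = 0.0166), and its responses differed by -0.54 (SE 0.08, adjusted p = 0.000103). All 7 transcription factors tested were called higher at medium MYC among controls, led by IRF7 (1.65), IRF5 (1.38) and NFKB1 (1.33), in a comparison where 76.2% of all genes were called and 38.9% were called higher. With the inhibitor IRF7 fell at high MYC (-0.61, SE 0.08, adjusted p = 4.51e-06), with a difference in response of -0.51 (SE 0.11, adjusted p = 0.00413), and IRF8 rose at both levels (0.30 and 0.19). Among inhibitors of the pathway TNFAIP3 (A20) and CYLD were far higher at medium MYC among controls (3.89 and 3.11), and TNFAIP3 rose with the inhibitor at high MYC (0.45, SE 0.07, adjusted p = 8.72e-05).

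**Figure D5:**
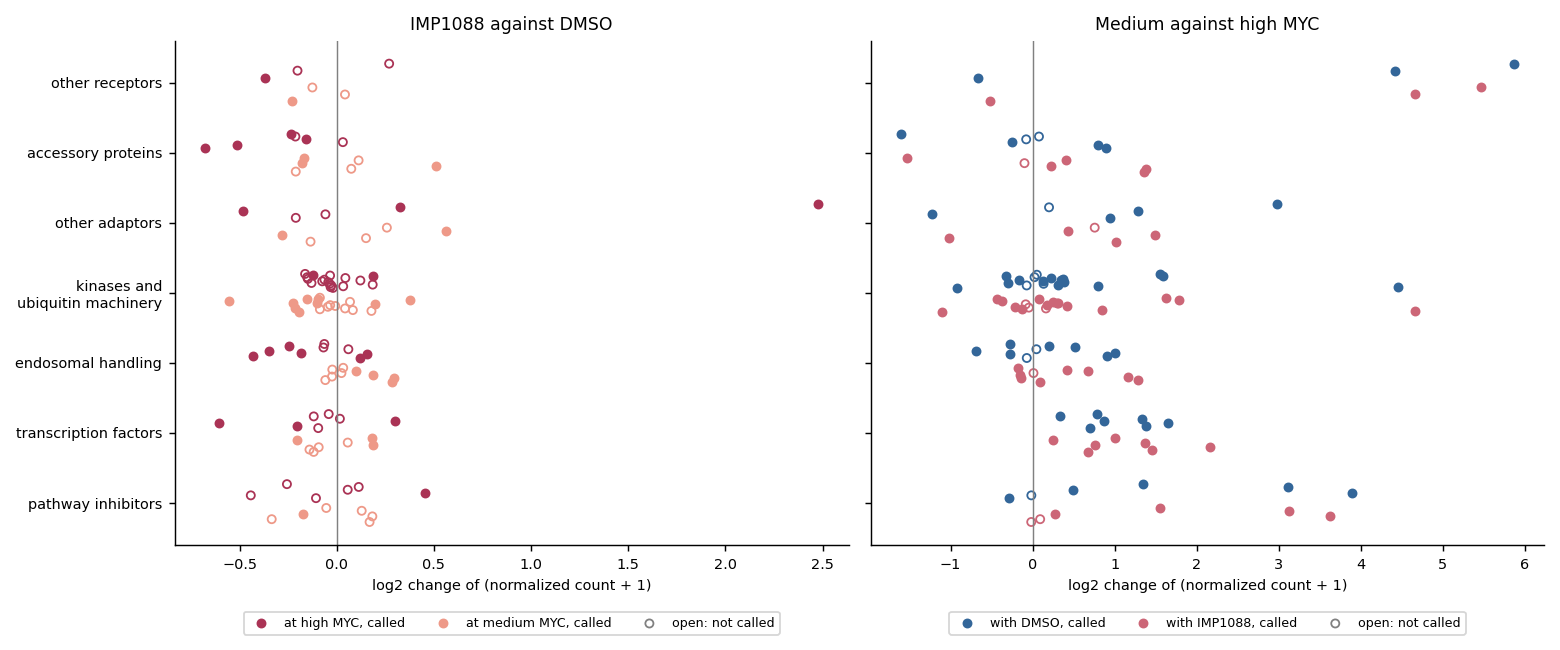
Log2 change of the normalized count plus 1 (x axis) of the 54 tested pathway genes, in 7 groups along the y axis, with IMP1088 against DMSO (left) and in medium against high MYC cells (right); each point is 1 gene, filled where it was called in limma and open where it was not. Changes with the inhibitor lie mostly between -0.7 and 0.6 apart from TMED7-TICAM2 at 2.48, whereas the MYC comparison spreads further and every transcription factor lies right of 0.

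Likeness of pattern was measured as Pearson's r of log2 values over the 16 libraries, which share the 4 groups, so r mainly reflects group means and is given as a description. Among the genes most like TLR1 were HLA-DRB1 and FCRL4 (r = 0.996 and 0.995), and those most like TLR6 were BTLA, LYN and DDX60 (r from 0.996 to 0.998). For TLR10 they were IFIT1, LBH and MX1 (r from 0.994 to 0.996) and for MYD88 PLEKHG2, ARHGAP9 and CENPI (r from 0.995 to 0.996). CD180 had IKZF1, GAPT and TRIM25 (r from 0.954 to 0.961) and UNC93B1 had EHMT2, SF1 and ITPR3 (r from 0.960 to 0.964). For TICAM1, TICAM2, TLR9 and TLR7 the highest r was 0.919, 0.927, 0.899 and 0.876, with SIN3B, SH3BP5-AS1, ECI1 and PUDP.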

How the data were processed

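The authors deposited a table of normalized counts for 58051 identifiers in 16 libraries, an expression signal that is never negative. The submitters' processing notes list GRCh38, STAR 2.5.2a, RSEM 1.2.31 and DESeq2 1.16.1, and the annotation and use of strand are not given in the sources used here. All deposited values were whole multiples of a step per library (100.0% within 0.001 read), so reads could be recovered. Symbols matched 56948 identifiers. Log2(value + 1) was fitted with limma 3.58.1 in R 4.3.3 for identifiers with a mean of at least 10, with 4 group means, a mean trend and Benjamini-Hochberg adjustment over all genes, two-sided. The fit was tested on simulated data. The labels do not say whether replicates were separate cultures, so p-values measure the spread between these libraries, which may be technical. Deviations from the group means in same-numbered libraries had correlations from -0.15 to 0.24, with a mean of -0.02. The highest was that of library 4 of the high and of the medium MYC controls. No pairing was used.

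The members and lists were chosen with earlier results of these data known. Of the pathway list, up to 3 called genes per subgroup, comparison and direction with the largest change could be named, and for each member the 3 genes most like it (mean of 50 or more), of which 1 is not reported here. CNPY3, TLR2, TLR3 and TLR8 are named outside this rule, after their values were seen. Alternatives were other pseudocounts, filters and scalings, fits without the mean trend or on the compared groups only, edgeR 4.0.16 and DESeq2 1.42.0 on recovered reads, libraries left out in turn, and, after seeing the data, overlapping loci summed. Stretches shared between genes were counted in GENCODE release 29 transcripts, and promoters came from RefSeq for 6 of the 10 members.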

Additional observations from a re-analysis of the deposited data

Results flagged for a closer look

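Within groups of 4 libraries, a single library stood apart from the others in 5 of the 40 groups examined for the 10 genes, where 5% are set apart by chance alone. These were the lowest TLR10 value (3405) among medium MYC controls, the highest TICAM1 value (426) among medium MYC controls and the lowest TICAM2 value (16.6) at high MYC with the inhibitor. The others were the highest UNC93B1 value at high MYC with the inhibitor (726) and among medium MYC controls (663). Medium MYC control 3 is the library concerned for TLR10, TICAM1 and UNC93B1. Its TLR10 value changed no call. Without it the fall of TICAM1 with the inhibitor at medium MYC was -0.22 and was still called (adjusted p = 0.0490), and that of UNC93B1 was -0.18 and was not (adjusted p = 0.0649).

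By limma's test of the difference, responses at high and medium MYC were unequal for TLR1 (-0.85, adjusted p = 3.88e-05), TLR6 (-0.68, adjusted p = 2.44e-06), TLR10 (-0.75, adjusted p = 1.59e-08) and CD180 (-0.53, adjusted p = 6.38e-06). For each of these genes all 4 treated libraries lay below all 4 controls at high MYC.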

How the results depend on the processing

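The calls of TLR1, TLR6, TLR10, MYD88 and CD180, and the absence of a call for TLR1 and TLR6 with the inhibitor at medium MYC, held under all alternatives run. The number of members called with libraries left out in turn was 5 to 8 at high MYC, 4 to 6 at medium MYC, 4 to 5 for the difference, 9 in each case among controls and 7 to 8 with the inhibitor. All counts over genes stayed within 1.5 times the value reported. With the replicate number as a block, which the libraries did not bear out as a pairing, 7, 6, 4, 9 and 7 members and 3468, 3425, 1052, 10419 and 10601 genes were called in the same order of comparisons, and TLR9 with the inhibitor lost its call between MYC levels (adjusted p = 0.0589).

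Some changes that were not called turned sign. The difference in response of TLR7 was 0.0100 under quantile normalization and 0.00461 in DESeq2, and -0.0283 to 0.0240 with libraries left out. That of TLR9, -0.38 on the deposited values, was 0.0338 with the overlapping loci summed. With libraries left out the lowest and highest values were -0.0486 and 0.0927 for TICAM1 at high MYC, -0.0142 and 0.288 for TICAM2 at medium MYC, -0.0913 and 0.0111 for the difference of MYD88, -0.00132 and 0.131 for that of UNC93B1, and -0.0476 and 0.00477 for TLR7 between MYC levels with the inhibitor. TLR7 lost its call with the inhibitor in 13 of 20 alternatives at high MYC and 14 of 20 at medium MYC, and TLR9 its MYC call with the inhibitor in 9 of 21. TLR9 lost its call at high MYC without the mean trend (adjusted p = 0.0589), in DESeq2 (0.0583) and without high MYC inhibitor library 2 (-0.45, 0.0645) or 3 (-0.45, 0.0620). TICAM2 with the inhibitor lost its MYC call at a pseudocount of 0.1 (0.0835). The cause was not tested in any of these.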
